A study of Mus musculus with 3 samples.

Results

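Accessible chromatin was described at 10 genes of the integrated stress response, namely the transcription factor genes Atf4, Atf5 and Ddit3, the ATF4 target genes Trib3 and Asns, the eIF2 kinase genes Eif2ak1, Eif2ak3 and Eif2ak4, and the eIF2 phosphatase subunit genes Ppp1r15a and Ppp1r15b. These are 10 of 21887 protein-coding genes, chosen by name, and every deposited ATAC-seq peak in the gene body or within 20 kb of it was taken. ATAC-seq inserts sequencing adapters into open DNA with a transposase, and a peak is a stretch where insertions pile up. The cells were hematopoietic stem cells (HSCs) of adult mice with the genotype Mx1-Cre-/-;mTORflox/flox, so that the floxed mTOR alleles were intact in every group, and all mice had received poly(I:C). Sorted HSCs were cultured in StemSpan SFEM with DMSO as the solvent control, with AZD2014 at 200 nM, an inhibitor of the mTOR kinase site, or with rapamycin at 1 µM, an allosteric mTOR inhibitor. Each condition had 1 library of 50000 cells, and the sources used here do not say whether cells of several mice were pooled. With 1 library per condition the replicate error is unknown, and no test was made. In bulk chromatin, a region open in fewer cells and a region less open in every cell cannot be told apart.

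In the integrated stress response, kinases that sense different stresses phosphorylate the translation initiation factor eIF2, which lowers general protein synthesis while favouring translation of a few mRNAs with upstream reading frames, among them that of ATF4. ATF4 then activates genes for amino acid synthesis, transport and stress resolution, and mTORC1 also promotes ATF4 translation. In HSCs this pathway has been described as active at rest and protective under amino acid shortage.

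Of the 10 genes, 10 had a peak within 1 kb of the transcription start in the DMSO list, 10 in the AZD2014 list and 9 in the rapamycin list. The exception was Trib3 under rapamycin. For 4395 of the 21887 genes, Ppp1r15b among them, no transcription start was listed, and a peak within 1 kb of either gene end was counted. Among all protein-coding genes the shares with such a gene-start peak were 47.2%, 50.7% and 48.2%, and 44.8% had it in all 3 lists. The windows of the 10 genes held 21 peaks in each list, although the lists themselves differed in length, at 17189 (DMSO), 21321 (AZD2014) and 18233 (rapamycin). After shortening every list to the 17189 highest scores the numbers were 21, 19 and 19. In the presence or joining of gene-start peaks, the lists differed in the missing Trib3 peak under rapamycin and a joined peak at Ddit3 under AZD2014. Scores and ranks of the start peaks differed as well and are given below.

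The promoter sequences of the 7 genes to which the values below refer most are shown here. Where such a gene had a start peak, the peak covered its printed sequence in whole or in part. Each is the 250 bases before the transcription start, read 5′ to 3′ on the strand of the gene, from RefSeq on GRCm38.p6, the assembly that mm10 names. Capitals mark matches on either strand to the C/EBP-ATF response element core TGATGCAA and its looser form TGATGNAA, to the cAMP response element TGACGTCA, the endoplasmic reticulum stress element, the CCAAT box, the GC box GGGCGG, the ETS motif CCGGAAG and the AP-1 motif TGAGTCA.
Atf4 (chr15:80254934-80255183, plus strand): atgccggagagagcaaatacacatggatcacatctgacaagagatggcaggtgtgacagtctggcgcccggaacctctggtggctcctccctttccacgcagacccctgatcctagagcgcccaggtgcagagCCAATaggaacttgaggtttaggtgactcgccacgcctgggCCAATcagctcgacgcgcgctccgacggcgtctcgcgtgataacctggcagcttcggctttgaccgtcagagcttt
Atf5 (chr7:44816659-44816908, minus strand): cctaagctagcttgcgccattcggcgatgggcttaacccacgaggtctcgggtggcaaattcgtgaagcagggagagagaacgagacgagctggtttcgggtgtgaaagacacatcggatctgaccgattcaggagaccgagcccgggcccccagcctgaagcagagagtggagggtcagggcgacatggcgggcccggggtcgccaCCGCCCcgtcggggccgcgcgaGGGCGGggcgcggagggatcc
Ddit3 (chr10:127290543-127290792, plus strand): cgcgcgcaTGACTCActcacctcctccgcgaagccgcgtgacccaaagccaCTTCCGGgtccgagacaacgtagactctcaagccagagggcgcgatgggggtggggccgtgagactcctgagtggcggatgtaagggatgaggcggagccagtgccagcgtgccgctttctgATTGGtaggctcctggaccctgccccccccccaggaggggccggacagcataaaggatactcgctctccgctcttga
Trib3 (chr2:152344061-152344310, minus strand): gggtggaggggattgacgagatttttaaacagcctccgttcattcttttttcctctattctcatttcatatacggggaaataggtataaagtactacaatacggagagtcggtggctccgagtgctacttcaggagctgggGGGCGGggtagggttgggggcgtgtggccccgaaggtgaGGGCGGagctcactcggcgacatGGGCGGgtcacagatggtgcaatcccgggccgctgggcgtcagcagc
Asns (chr6:7693210-7693459, minus strand): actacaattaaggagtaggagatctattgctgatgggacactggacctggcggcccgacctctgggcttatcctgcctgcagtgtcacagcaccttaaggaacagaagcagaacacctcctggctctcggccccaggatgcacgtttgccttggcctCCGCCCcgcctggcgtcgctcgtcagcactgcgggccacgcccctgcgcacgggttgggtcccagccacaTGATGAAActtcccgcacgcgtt
Ppp1r15a (chr7:45526269-45526518, minus strand): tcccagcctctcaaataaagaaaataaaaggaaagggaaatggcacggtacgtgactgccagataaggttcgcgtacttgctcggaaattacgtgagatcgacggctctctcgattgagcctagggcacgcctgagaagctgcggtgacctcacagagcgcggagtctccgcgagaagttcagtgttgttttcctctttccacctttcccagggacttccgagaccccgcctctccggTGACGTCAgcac
Eif2ak3 (chr6:70844265-70844514, plus strand): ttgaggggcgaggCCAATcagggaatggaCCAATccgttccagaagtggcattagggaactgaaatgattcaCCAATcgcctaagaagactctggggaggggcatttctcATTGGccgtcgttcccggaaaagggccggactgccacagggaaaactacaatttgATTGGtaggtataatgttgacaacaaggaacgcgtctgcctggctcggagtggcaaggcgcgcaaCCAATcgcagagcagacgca

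Sequence was available for 9 of the 10 genes, with 11 promoters in all since Atf5 and Eif2ak4 have 2 starts each, and Ppp1r15b was named only. The core TGATGCAA was found in none of the 11, and in 0.743% of 20998 distinct protein-coding promoters. The looser TGATGNAA was searched after the sequences had been seen and was found in Asns alone, 23 to 16 bases before the start, against 3.09% of promoters. The full cAMP response element was found in Ppp1r15a alone of these genes, 12 to 5 bases before the start, against 1.94% of promoters. No endoplasmic reticulum stress element was found in the 11 promoters (0.133% of all). The CCAAT box was present in Atf4, Ddit3, Eif2ak1, Eif2ak3 and the downstream Atf5 promoter, with 35.3% of all promoters holding it, and Eif2ak3 held 6 copies. The GC box, found in 43.1% of promoters, was present 3 times each in Trib3, Eif2ak1 and the downstream Atf5 promoter. It was also present in Asns, the upstream Atf5 promoter and the promoter of the first Eif2ak4 start. The ETS motif was found in Ddit3 alone, 199 to 193 bases before the start, against 9.07% of promoters. The AP-1 motif was also found in Ddit3 alone, 242 to 236 bases before the start, against 4.04%. A match describes letters and not a bound site. GC content of the 250 bases ran from 53.6% at Eif2ak3 to 67.2% at the first Eif2ak4 start, where the median promoter had 55.6%.

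**Figure D1:**
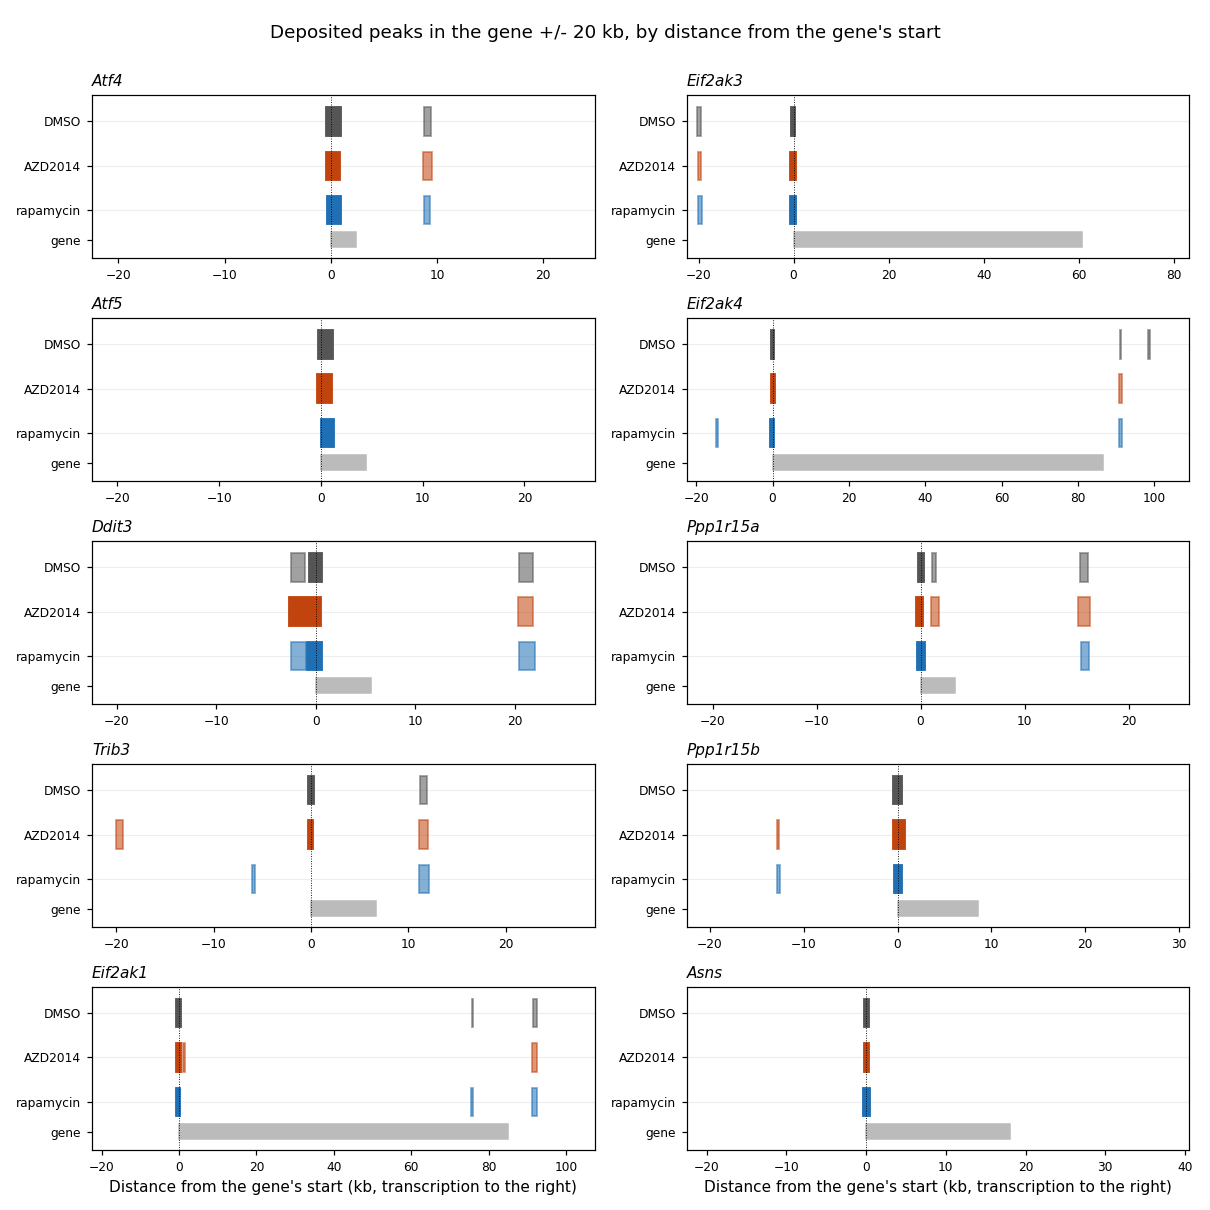
Peaks of the 3 deposited lists (rows, 1 library each) by distance from the gene's start in kb, with the gene as a grey bar; solid boxes lie at the gene's own start and pale boxes elsewhere in the 20 kb window, and Ppp1r15b is drawn from its lower-coordinate end. Every gene has a box at 0 in each row except Trib3 under rapamycin, and the Ddit3 box under AZD2014 spans 3230 bp.

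Values are given as the authors' score per peak and as its place, the rank by score as a percentage of the peaks of the same list, so that a small place means a high score. No common scale is shown for the scores of the 3 lists, and places in lists of different lengths show no change by themselves. They are set side by side as a description.

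Atf4 encodes the transcription factor at the centre of the response. The peak over its start (chromosome 15, 80254771 to 80256109 under DMSO, mm10) scored 322 under DMSO, 694 under AZD2014 and 519 under rapamycin. Its place was 13.2% of the DMSO list, 2.23% of the AZD2014 list and 4.59% of the rapamycin list. It therefore ranked 2266th, 475th and 836th, higher in both drug lists than under DMSO. Its width was nearly the same in the 3 lists, at 1339, 1367 and 1318 bp, and the peak covered the whole printed promoter and the first 888 bp or more of the gene. The only other window peak, over the start of the neighbour Rps19bp1, had places of 54.0%, 40.2% and 38.6%. Just outside the window, 704, 655 and 707 bp beyond its edge, lay another peak with scores of 422, 521 and 493.

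Atf5 encodes a factor related to ATF4 that takes part in the mitochondrial stress response and is likewise regulated by upstream reading frames. Its start peak (chromosome 7, 44815475 to 44816956 under DMSO) scored 444, 811 and 619 in the order DMSO, AZD2014, rapamycin. The places were 4.69%, 0.882% and 2.14%, the same order as at Atf4. This peak touched both annotated Atf5 starts in each list and was also within 1 kb of starts of Nup62, a nuclear pore gene, and Il4i1b, so it cannot be assigned to Atf5 alone. Under rapamycin the peak reached only 37 bp before the upstream start, so most of the printed promoter lay outside it. No other peak lay in the Atf5 window in any list.

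Ddit3 encodes CHOP, which promotes cell death under unresolved stress. Under DMSO a peak over its start (chromosome 10, 127290115 to 127291361, 1247 bp, score 274) was separated by 450 bp from an upstream peak (127288319 to 127289664, score 243) within 1 kb of a start of Mbd6. Rapamycin had the same pair with a gap of 151 bp and scores of 278 and 237. AZD2014 had instead 1 peak of 3230 bp (127288069 to 127291298, score 554) over both. Of all peaks, 188 of 21321 under AZD2014 (0.882%) and 153 of 18233 under rapamycin (0.839%) lay over 2 or more DMSO peaks. How many DMSO peaks lay as close together as this pair was not counted. These shares therefore do not show how often such a close pair was joined. The start peak had a place of 18.9% in the DMSO list, 6.06% in the AZD2014 list, where the value belongs to the joined peak, and 22.6% in the rapamycin list. The other region of the window was the start of Mars1, a methionyl-tRNA synthetase gene, with places of 17.3%, 12.3% and 21.1%.

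Trib3 encodes a pseudokinase induced by ATF4 that in turn restrains ATF4 and CHOP activity. Its start peak (chromosome 2, 152343728 to 152344345 under DMSO, 618 bp) scored 99.5 under DMSO and 93.4 under AZD2014, with places of 59.4% and 64.2%. It covered the printed promoter in both lists. No rapamycin peak overlapped it, and the nearest in the upstream direction (152349763 to 152350152, 390 bp, score 90.2) began 5703 bp before the start and had no partner in the other lists. AZD2014 alone had a peak farther upstream (152363402 to 152364125, score 112.95, place 56.5%), which crossed the edge of the window by 65 bp. A start peak under DMSO and AZD2014 and none under rapamycin was seen at 307 genes, which is 1.4% of all protein-coding genes, and of the genes with a start peak under DMSO 4.37% lacked it under rapamycin and 2.07% under AZD2014. Among DMSO gene-start peaks placed at 50 to 60%, 29 of 820 (3.54%) had no overlapping rapamycin peak, and at 60 to 70% the share was 13.6%. Among AZD2014 gene-start peaks placed at 60 to 70% it was 151 of 528, or 28.6%. The neighbouring Rbck1 start, under a peak 11151 to 11916 bp downstream of the Trib3 start in the DMSO list, was marked in all 3 lists with scores of 420.5, 507 and 376. With a score minimum of 100 no list had a Trib3 start peak.

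**Figure D2:**
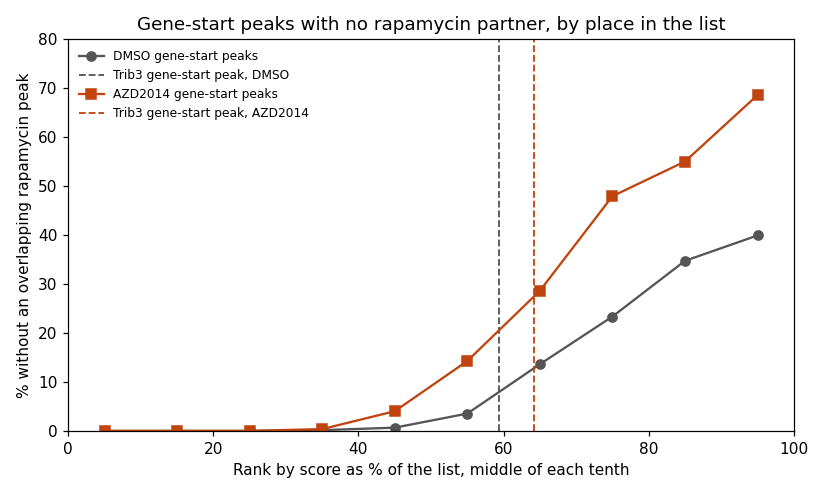
Share of gene-start peaks with no overlapping rapamycin peak (y axis, percent) for 10 equal parts of the DMSO and AZD2014 lists by score (x axis, 0 is the highest scores); dashed lines give the places of the Trib3 start peak, 59.4% and 64.2%. The share is 0% up to a place of 30% in both lists and reaches 39.9% and 68.5% at 90 to 100%.

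Asns encodes asparagine synthetase, a classical ATF4 target induced by amino acid shortage. Its start peak (chromosome 6, 7692820 to 7693419 under DMSO) was the only peak in its window in every list, and it covered the TGATGAAA match of the printed promoter. It scored 112 under DMSO, 164 under AZD2014 and 150.0 under rapamycin, with places of 54.2%, 43.4% and 44.2%. Its widths were 600, 659 and 847 bp.

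The kinase genes Eif2ak1, Eif2ak3 and Eif2ak4 had a start peak in every list. Eif2ak3 encodes PERK, the kinase of the endoplasmic reticulum membrane, and its start peak (chromosome 6, 70843889 to 70844869 under DMSO) stood among the highest of each list, with scores of 593, 780.0 and 711 and places of 1.15%, 1.16% and 0.976%. This was the narrowest range of places among the 9 genes marked in all lists. Eif2ak4 encodes GCN2, which senses uncharged tRNA. At its start a peak (chromosome 2, 118388126 to 118389081 under DMSO) scored 458, 491 and 516, with places of 4.20% under DMSO, 8.95% under AZD2014 and 4.69% under rapamycin. Eif2ak1 encodes HRI, the kinase that responds to low heme and to mitochondrial stress. The peak over its start (chromosome 5, 143817083 to 143818237 under DMSO) scored 354, 446 and 335, with places of 10.3%, 11.6% and 16.5%.

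Several peaks, some of them weak, lay in the windows of the kinase genes away from their starts. Inside Eif2ak1, a peak at 143893385 to 143893888 was present under DMSO (score 82.3) and rapamycin (63.5) and not under AZD2014. AZD2014 alone had a peak 1072 bp after the start (143818864 to 143819310, score 64.4). At Eif2ak4, DMSO alone had a peak beyond the gene (118486959 to 118487352, score 54.8), and rapamycin alone one near the start of Gpr176 with a score of 50.2, where the lowest score in that list was 50. Upstream of Eif2ak3, a peak in all 3 lists crossed the edge of the window by 237, 53 and 64 bp. It had scores of 133, 94.95 and 158 and places of 46.8%, 63.6% and 42.4%. The windows of Eif2ak1 and Eif2ak4 also took in the starts of Aimp2 and Pms2 and of Srp14, which were marked in all 3 lists.

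The phosphatase subunit genes were marked in every list, Ppp1r15a at its start and Ppp1r15b at an end of the gene. Ppp1r15a encodes GADD34, the stress-induced subunit that directs protein phosphatase to eIF2 and ends the response. Its start peak (chromosome 7, 45525954 to 45526520 under DMSO) scored 113, 145 and 130.2, with places of 53.9%, 47.4% and 49.3%. The start of Plekha4 lies within 1 kb of it, so the peak is shared. A second peak in the gene body was present under DMSO (45524753 to 45525120, score 65.4, place 81.6%) and AZD2014 (score 86.8, place 67.7%) and not under rapamycin. Ppp1r15b encodes CReP, the constitutive subunit. The peak at its lower-coordinate end (chromosome 1, 133130719 to 133131665 under DMSO) scored 550.3, 438 and 496, with places of 1.68% under DMSO, 12.1% under AZD2014 and 5.46% under rapamycin. Both drug lists also had a narrow peak (133118260 to 133118565 under AZD2014), with its near edge 12601 bp from that end of the gene under AZD2014 and 12574 bp under rapamycin. It had no DMSO partner and scored 57.6 under AZD2014 and 51.1 under rapamycin, close to the lowest score of 50.

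**Figure D3:**
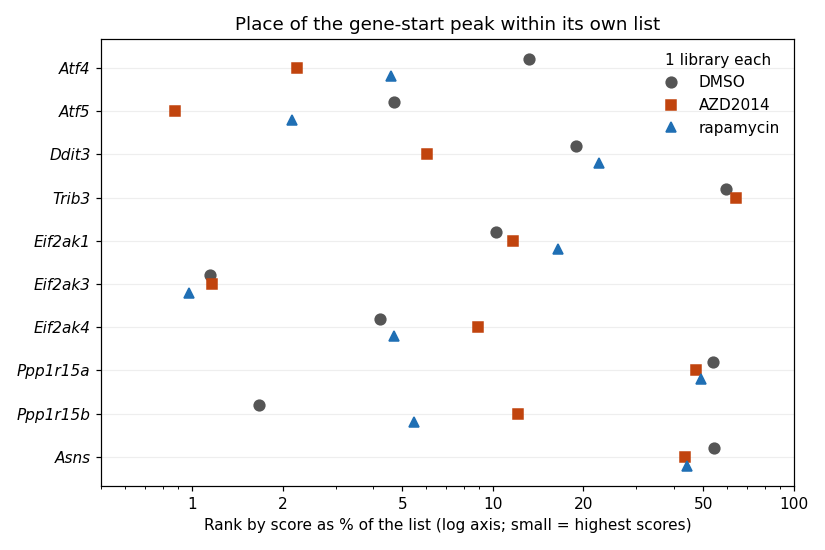
Rank of each gene's start peak by score as a percentage of its own list (log axis, small values are the highest scores), with a marker for each library. Eif2ak3 lies near 1% in all 3 lists, and Trib3, Ppp1r15a and Asns lie beyond 40%. Atf4, Atf5, Ppp1r15a and Asns have smaller percentages under both drugs than under DMSO, in lists of different lengths.

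Across the group the start peaks spanned much of each list, from 0.882% for Atf5 to 64.2% for Trib3, both under AZD2014. Those of Atf5, Eif2ak3, Eif2ak4 and Ppp1r15b were within the top 10% of the DMSO list. Of the genes with a start peak, 4 of 10 stood there under DMSO, 5 of 10 under AZD2014 and 5 of 9 under rapamycin, beside 18.1%, 21.3% and 19.1% of all genes with a start peak. Trib3, Ppp1r15a and Asns had places of 43.4% or more wherever they were marked. The median place over the marked members was 11.7%, 10.3% and 5.46%, where that over all marked genes was 29.2%, 25.1% and 27.7%. The rapamycin median leaves out Trib3.

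To place them on lists of equal length, the 13670 merged regions with a peak in all 3 lists were ranked by score within each list, a comparison added after the data had been seen. The Atf4 start region stood 13.1 percentage points nearer the top under AZD2014 and 10.45 under rapamycin than under DMSO. For Atf5 the values were 4.53 and 3.04. Ddit3 stood 14.3 points nearer under AZD2014 and -6.39 under rapamycin, which is farther from the top. Its merged region also holds the Mbd6 start, and the highest score in it was ranked. Under AZD2014 that is the score of the joined peak, so the values do not belong to the Ddit3 start alone. Ppp1r15b was farther from the top under both, with -16.8 and -5.17, as were Eif2ak1 with -5.24 and -9.05 and Eif2ak4 with -8.68 and -0.980. Asns stood at 0.227 and 8.58, and Ppp1r15a at -5.38 and 1.90. Eif2ak3 had the smallest values of the 9 genes under rapamycin and the second smallest under AZD2014, with -0.373 and 0.139. All these lie inside the central 90% of the 8900 common gene-start regions, which ran from -19.4 to 21.2 points for AZD2014 and from -20.6 to 21.9 for rapamycin. That range pools regions of every place under DMSO, and a region already near the top has little room to move nearer. Regions of like place were not compared, so the range does not show whether a shift is usual for its place. By at least 5 points, 2 of 9 members were nearer under AZD2014 and 4 farther, where 30.4% and 28.2% of all those regions were, and under rapamycin 2 were nearer and 3 farther, beside 31% and 29.4%. The 4 of 9 farther under AZD2014 is a larger share than that of all regions. With only 9 members and 1 library each, the counts are no result about the group.

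**Figure D4:**
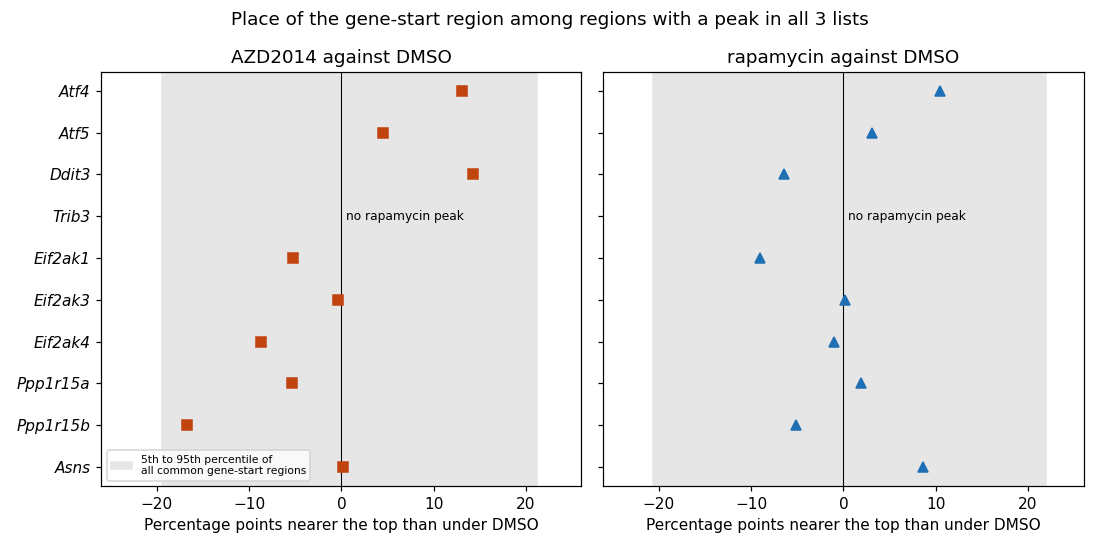
Percentage points by which each gene-start region stood nearer the top under the drug than under DMSO, among 13670 regions with a peak in all 3 lists; negative values are farther from the top and grey is the 5th to 95th percentile of 8900 gene-start regions. All 9 genes with a value lie in the grey band in both panels, Ddit3 and Ppp1r15b being the outermost under AZD2014. The band pools regions of every place under DMSO, and the Ddit3 region also holds the Mbd6 start.

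Start peaks of the group were 567 to 1482 bp wide under DMSO, 543 to 3230 bp under AZD2014 and 814 to 1493 bp under rapamycin, with medians of 968.5, 1243 and 1140 bp. Over all gene-start peaks the medians were 758, 920 and 885 bp. Of the 9 start regions found in all 3 lists, the widest peak was wider than under DMSO in 8 under AZD2014 and in 6 under rapamycin, where 85.4% and 77.1% of all such regions were. The members' counts are near these shares.

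**Figure D5:**
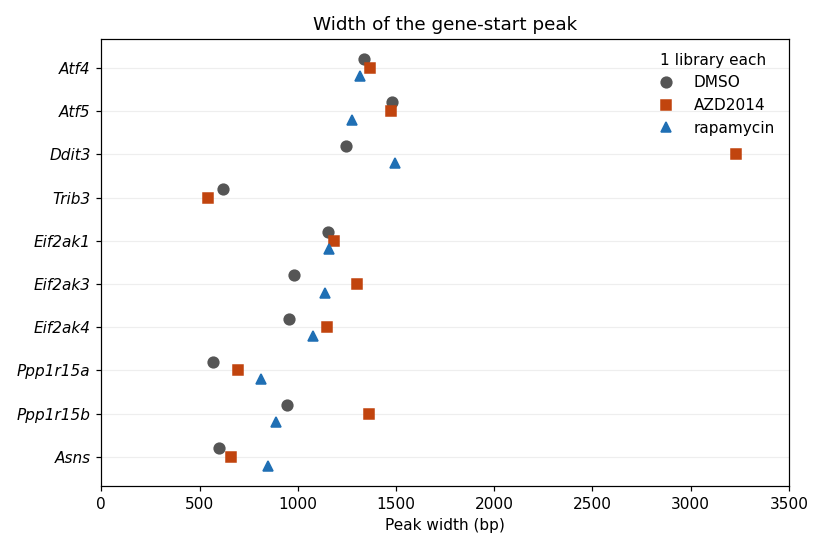
Width in bp of each gene's start peak, with a marker for each library. The AZD2014 peak of Ddit3 lies apart at 3230 bp, and all other markers lie between 543 and 1493 bp.

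Merging the lists gave 25 regions in the windows of the 10 genes. A peak from each of the 3 lists was present in 16 of them (64.0%), beside 54.7% of all 24981 regions. At gene starts the numbers were 9 of 10 for the members and 82.3% of 10814 regions overall. The other 9 regions comprised 2 under DMSO and AZD2014, 1 under DMSO and rapamycin, 1 under both drugs, 2 under AZD2014 alone, 2 under rapamycin alone and 1 under DMSO alone. Window peaks were more numerous under AZD2014 than under DMSO at 2 of the 10 genes (Trib3 and Ppp1r15b), beside 23.6% of all genes, and fewer at 2 (Ddit3 and Eif2ak4), beside 6.41%. The lower number at Ddit3 came from the joined peak. Under rapamycin 1 gene (Ppp1r15b) had more and 1 (Ppp1r15a) had fewer, beside 14.8% and 11.3%. Window peaks at no annotated protein-coding start numbered 4, 5 and 4 in the lists, all with scores of 158 or less and places of 42.4% or more.

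A wider list of 56 genes of the pathway, all matched, held start peaks at 47 genes under DMSO, 48 under AZD2014 and 48 under rapamycin, with 46 marked in all 3 lists. These are 83.9%, 85.7% and 85.7% of the list, beside 47.2%, 50.7% and 48.2% of all protein-coding genes, and nothing is read from this since the list was chosen by hand. Gene-start peaks were present in every list at all 6 amino acid transporter genes and all 5 aminoacyl-tRNA synthetase genes. Of 12 genes for eIF2, eIF2B and regulation of the eIF2 kinases, 10, 11 and 11 were marked, and of 12 amino acid and one-carbon enzyme genes also 10, 11 and 11. The 14 genes of other transcription factors and stress effectors had 9 in each list, and the 7 unfolded protein response genes had 7, 6 and 6. The list status differed at 4 genes. Eif2ak2, which encodes PKR, a kinase activated by double-stranded RNA, was marked under AZD2014 (score 149.8, place 46.2%) and rapamycin (63.5, 82.6%) and not under DMSO. Atf6, which encodes an endoplasmic reticulum stress sensor, was marked under DMSO alone (68.9, 78.6%), and its window held 5, 3 and 2 peaks. Aldh1l2, a mitochondrial folate enzyme gene, was marked under AZD2014 alone (75.9, 74.4%) and Cbs, the cystathionine beta-synthase gene, under rapamycin alone (52.6, 95.9%). Over all genes, 4.5% had a start peak under AZD2014 and not DMSO and 0.978% the reverse, and for rapamycin 3.02% and 2.06%. In all 3 lists, Gdf15, Fgf21, Vldlr, Stc2, Nupr1 and Impact had none, although the Gdf15 window held 4 peaks in each.

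The labelled cell type was checked on start peaks of marker genes. The HSC genes Kit, Meis1, Hlf, Mecom and Runx1 were marked in all 3 lists. Cd34 was marked under AZD2014 alone (score 59.2, place 88.0%), and Procr, Slamf1 and Fgd5 had no start peak in any list. None of 3 B cell, 3 T cell and 4 non-blood genes was marked in any list, and the erythroid gene Klf1 was marked in all 3. Of 3 neutrophil and monocyte genes, Mpo was marked under rapamycin alone (score 75.8, place 72.8%) and Elane and Csf1r in no list. Of 2 mast cell genes, Cpa3 was marked under rapamycin alone (score 77.7, place 71.3%) and Mcpt8 in no list. What part such cells had in the values above was not tested.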

How the data were processed

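ATAC-seq was done on 3 libraries, with groups taken from the sample titles. The submitters' processing notes name CASAVA and the build mm10. For every library the authors deposited a list of peaks called in that sample, with a score per peak and peak names containing MACS. The sources used here do not give the aligner, the caller's settings, the handling of duplicates or a transposase shift, which set how many weak peaks pass and how wide peaks are. Read totals are unknown.

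From these lists, peaks overlapping a gene or its 20 kb flanks by at least 1 bp were taken, with starts written from 1. A gene-start peak lay within 1 kb of a start in the RefSeq promoter table (GRCm38.p6). For 4395 of 21887 genes without an entry there, Ppp1r15b among them, either end of the gene was used. Exons and introns were not separated. Peaks that overlapped between lists were joined into regions. Members and lists were chosen with earlier results of these data known. Named were all members, and pathway genes whose start status differed between lists, and those with no start peak in any list were named after their values were seen. Some marker genes are not reported here. Alternatives were other windows, stricter scores, equal list lengths, fixed widths and other overlap rules. Overlaps were tested on simulated data with known added and removed peaks. Python 3.11.15, numpy 2.4.6, pandas 2.3.3 and matplotlib 3.10.9 were used.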

Additional observations from a re-analysis of the deposited data

How the results depend on the processing

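Each condition had 1 library, so no library could be left out. No paired analysis was possible for the same reason, and the labels carry no replicate numbers. Trib3 lacked a rapamycin start peak with start windows of 500 and 2500 bp, at equal list lengths and with peaks set to 200 bp, where the DMSO and AZD2014 lists had it. With a score minimum of 100, or the upper 50% of each list by score, Trib3 had none in any list. In that upper 50%, DMSO also lacked start peaks at Ppp1r15a and Asns, leaving 7, 9 and 9 genes in the order DMSO, AZD2014, rapamycin. With peaks set to 200 bp, AZD2014 lacked the one at Ddit3, since the joined peak has its middle elsewhere. Peaks in the gene bodies alone numbered 12, 12 and 10. With 50 kb on either side they were 30, 35 and 31, so the equal numbers of the 20 kb windows held for that width. Regions found in 1 list, 5 in the windows of 20 kb, numbered 8 with a reciprocal overlap of 50%, 3 at equal list lengths and 1 in the gene bodies alone. Regions in all 3 lists then numbered 9 in the gene bodies. The other 43 of 51 repeated counts were within 1.5 times the reported ones. Unknown depth limits what an absent peak can mean: it did not pass the authors' threshold in that library.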
